A study of Danio rerio with 12 samples.

Results

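The genes described here encode the parts of the TGF-beta, activin and BMP pathway of the zebrafish: the ligands, their receptors, the Smad proteins that carry the signal, the secreted antagonists and the Id genes. They are the rows of the gene table whose symbol begins with tgfb, bmp and a digit, bmpr, smad, inhb, acvr, gdf, mstn, fst, grem or nog, or is one of the 4 symbols *id1* to *id4*. This gave 84 rows with 81 symbols out of 32105 rows, since *bmpr1bb*, *grem1a* and *id1* each have more than 1 row. The match uses no measured value. The match is by letters alone, so 5 rows are no pathway component or have a further role (*bmp1a*, *bmp1b*, *bmp2k*, *tgfbi* and *tgfbrap1*). They are grouped as matched by name only, and they stay in all counts, shares and medians of the members. A further 8 rows with capital letters, such as SMAD4 (1 of many), fall outside the match.

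The study asked how loss of Gridlock (Grl, also known as Hey2), a transcriptional repressor of the heart muscle, changes the regenerating zebrafish heart. RNA came from ventricles of 5-month-old fish of the AB strain, collected 7 days after the ventricular apex was cut off (7 dpa). The 3 grl5nt-/- libraries carry a CRISPR/Cas9 deletion of 5 nucleotides in the first exon of *grl*, predicted to leave a short truncated peptide, and the 3 WT libraries come from siblings. Each library pooled the ventricles of 6 fish, so a value is an average over 6 hearts, and uninjured hearts were not compared here. The 6 samples of the series that overexpress *grl* in heart muscle, with their controls, are not analysed here.

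Ligands of this family bind a pair of type I and type II receptors, and the type I receptor phosphorylates receptor Smads that enter the nucleus with Smad4. TGF-beta and activin receptors act mainly through Smad2 and Smad3, and BMP receptors through Smad1, Smad5 and Smad9. Follistatins, noggins and gremlins hold ligands outside the cell, and Smad6 and Smad7 block the signal inside it. In zebrafish, TGF-beta and activin signaling through Smad3 is needed for scar formation and cardiomyocyte proliferation after heart injury, and BMP signaling also promotes heart regeneration.

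The total count per library was 12520034 to 14694175 in grl5nt-/- and 13839609 to 15006574 in WT ventricles, and a count of 3 equals 0.155 to 0.293 CPM (CPM are counts divided by the TMM-scaled library size). The mutated gene had 228, 218 and 189 counts in grl5nt-/- replicates 1, 2 and 3 and 256, 177 and 127 counts in WT replicates 1, 2 and 3. In CPM this was 15.6, 18.8 and 18.5 in grl5nt-/- against 13.3, 10.6 and 9.95 in WT, without overlap. The log2 fold change, grl5nt-/- over WT, was 0.64 (SE 0.22, unadjusted p = 0.0191 and adjusted p = 0.41 in the edgeR quasi-likelihood test). Since the mutation removes only 5 nucleotides, the read count of *grl* does not check the labels. Libraries differed most along a component that held 60.8% of the variance and separated grl5nt-/- replicates 2 and 3 and WT replicate 3, which have reads on the mitochondrial gene *mt-co1*, from the other 3 libraries, which have none. The genotypes separated on the second component, with 17.0%. Cardiomyocyte markers summed to 27059 to 36462 CPM in grl5nt-/- and 22447 to 32397 CPM in WT ventricles, and no marker list had a member at 0 in all libraries. Macrophage and leukocyte markers summed to 140 to 177 CPM in grl5nt-/- and 179 to 291 CPM in WT ventricles, with no overlap. Of their 5 genes, 3 were lower at an unadjusted p below 0.05, where 6.35% of all genes were. Only *lcp1* separated by genotype, and *mpx* had a higher mean in grl5nt-/- (log2 fold change 0.40, SE 0.61). The 3 erythrocyte markers all had a higher mean in grl5nt-/-, with overlap and 0 at an unadjusted p below 0.05. The part of these cell types in the results was not tested, and in whole ventricles fewer cells of a type cannot be told apart from less RNA per cell.

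Of the 84 members, 43 had a mean of at least 1 FPKM over the 6 libraries (a count of fragments scaled to the length of the transcript and to the mapped reads, so that levels can be compared between genes), and 19 had at least 10 FPKM. The edgeR fit kept 57 members. The other 27 had at most 28 counts in any library, and *mstna*, *gdf6b*, *grem1b* and *nog5* had none. *mstnb*, a myostatin gene like *mstna*, was among those not tested, with 7, 4 and 8 counts in grl5nt-/- and 2, 4 and 4 counts in WT replicates 1, 2 and 3. Of the 57 tested, 9 passed the filter in fewer than 3 grl5nt-/- libraries and 5 in fewer than 3 WT libraries. Some of these could pass through 1 genotype alone, while *gdf3*, over the filter in 2 libraries of each genotype, could not.

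**Figure D1:**
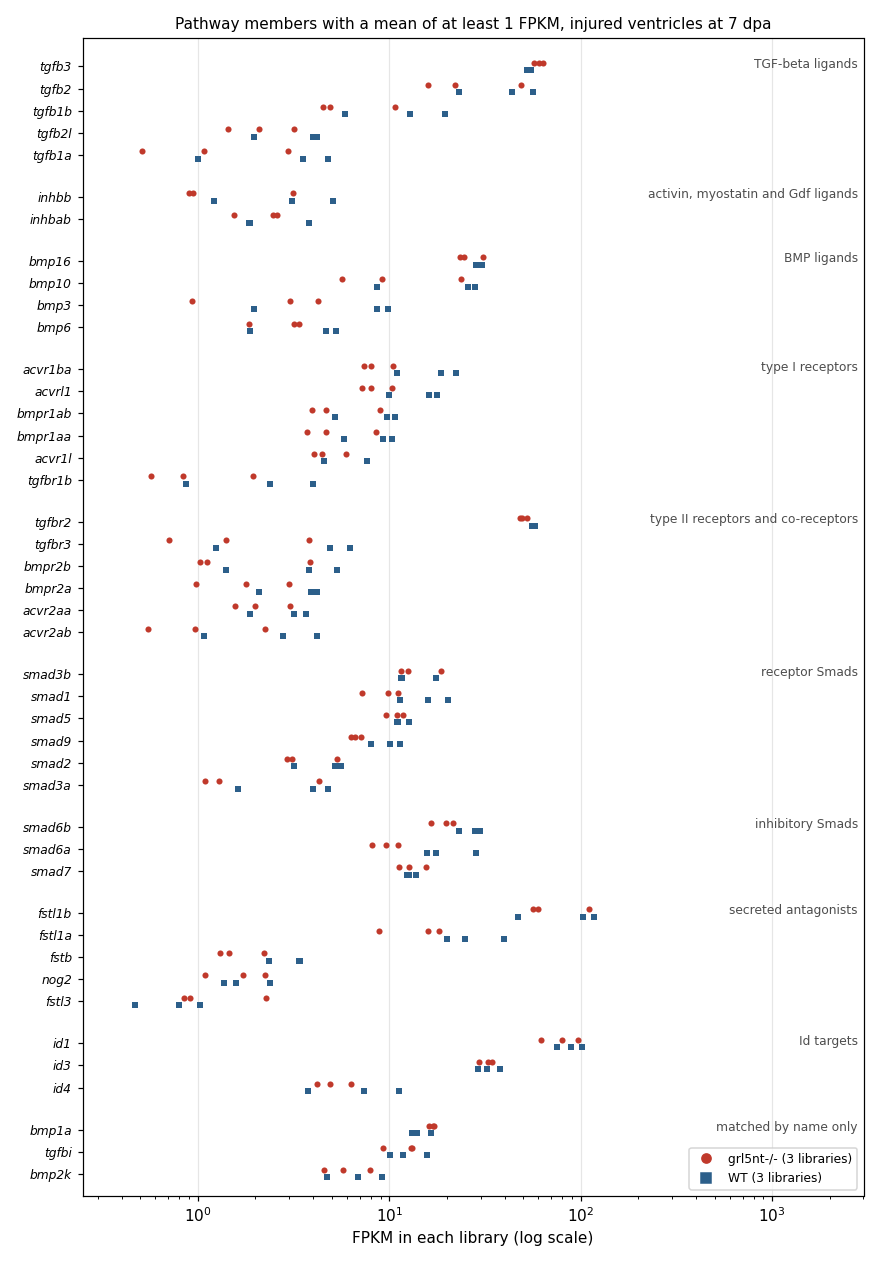
Level of each member with a mean of at least 1 FPKM, in FPKM on a log axis; each red circle is 1 of 3 grl5nt-/- libraries and each blue square 1 of 3 WT libraries, and members are grouped by role. The members span from below 1 FPKM in single libraries to above 100 FPKM for *fstl1b*, and in most of them the libraries of the genotypes interleave.

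None of the 57 members passed an adjusted p of 0.05 in the edgeR quasi-likelihood test, in which 0.0192% of all 15602 genes did so with a higher and 0.0577% with a lower level in grl5nt-/- ventricles. With an unadjusted p below 0.05 there was 1 member higher (1.75% of the members tested, against 4.22% of all genes) and there were 7 lower (12.3%, against 6.35% of all genes). The higher one was *bmp1a*, a row matched by name only, and the lower ones were *inhbaa*, *gdf6a*, *acvr1ba*, *acvrl1*, *smad6a*, *fstb* and *nog3*. In CPM the libraries of the genotypes did not overlap in 2 members that were higher in grl5nt-/- (3.51%, against 6.95% of all genes) and 9 that were lower (15.8%, against 8.64%), namely the same 8 with *smad3b* on the higher side and *gdf5* and *smad1* on the lower. An exact permutation test gives p = 0.1 for each of these 11, the smallest that 3 libraries against 3 allow. The lack of overlap by which they were chosen fixes that value, so the test adds no support. The median log2 fold change, grl5nt-/- over WT, was −0.24 over the members and −0.05 over all genes, and 37 of the 57 members (64.9%) had a lower mean in grl5nt-/-, against 53.1% of all genes. The median over the members was −0.12 without grl5nt-/- replicate 2, −0.36 without grl5nt-/- replicate 1 and −0.37 without WT replicate 3, and −0.14 with a term for *mt-co1* reads. Among the lower members, *gdf6a* and *nog3* passed the filter on low counts in no grl5nt-/- library and *gdf5* in 1, against 3 WT libraries each, so these could enter the test through WT alone.

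Other tools called some members. DESeq2 gave *gdf6a* an adjusted p below 0.05, as it did for 0.706% of the genes on the lower side. The edgeR fit with a term for *mt-co1* reads gave one to *gdf6a* and *nog3*, against 0.891% of all genes on the lower side. Both passed the edgeR filter on low counts in no grl5nt-/- library, so they could enter that fit through WT alone. With 1 library left out, the counts moved for all genes as well as for the members. The 7 lower members became 17 with grl5nt-/- replicate 1 left out (27.9% of the members, against 16.6% of all genes in that fit), 4 with grl5nt-/- replicate 3 left out (6.67%, against 3.40%) and 3 with WT replicate 2 left out (4.92%, against 3.07%). The 1 higher member became 3 with grl5nt-/- replicate 1 left out (4.92%, against 9.35% of all genes), 2 with WT replicate 3 left out (3.33%, against 10.6%) and 0 with any 1 of the other 4 libraries left out, where 1.88% to 2.12% of all genes were higher. Lower members with no overlap numbered 20 with grl5nt-/- replicate 1 left out (32.8%, against 24.9% of all genes), 23 with WT replicate 3 left out (38.3%, against 24.8%) and 14 with WT replicate 1 left out (24.1%, against 11.0%). Higher members with no overlap numbered 8 when grl5nt-/- replicate 1 was left out (13.1%, against 21.8% of all genes), 6 when it was WT replicate 3 (10%, against 20.8%), and 3 when it was WT replicate 1 (5.17%, against 8.86%) or WT replicate 2 (4.92%, against 8.51%).

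The scale also matters for single members. FPKM carry no TMM factor, and on log2(FPKM + 1) the median over all genes was −0.21, with 87.7% of the members lower in grl5nt-/- ventricles against 75.7% of all genes. In FPKM, 10 members (17.5%, against 10.8% of all genes) were lower with no overlap, and 6 of them were so in CPM too. *inhbaa*, *gdf5* and *acvrl1* overlapped in FPKM, and *smad9*, *smad6b*, *fstl1a* and *tgfbr2* were without overlap in FPKM alone. *smad3b* and *bmp1a* overlapped in FPKM, where *tgfb3* was the 1 member higher with no overlap (1.75%, against 4.27% of all genes).

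**Figure D2:**
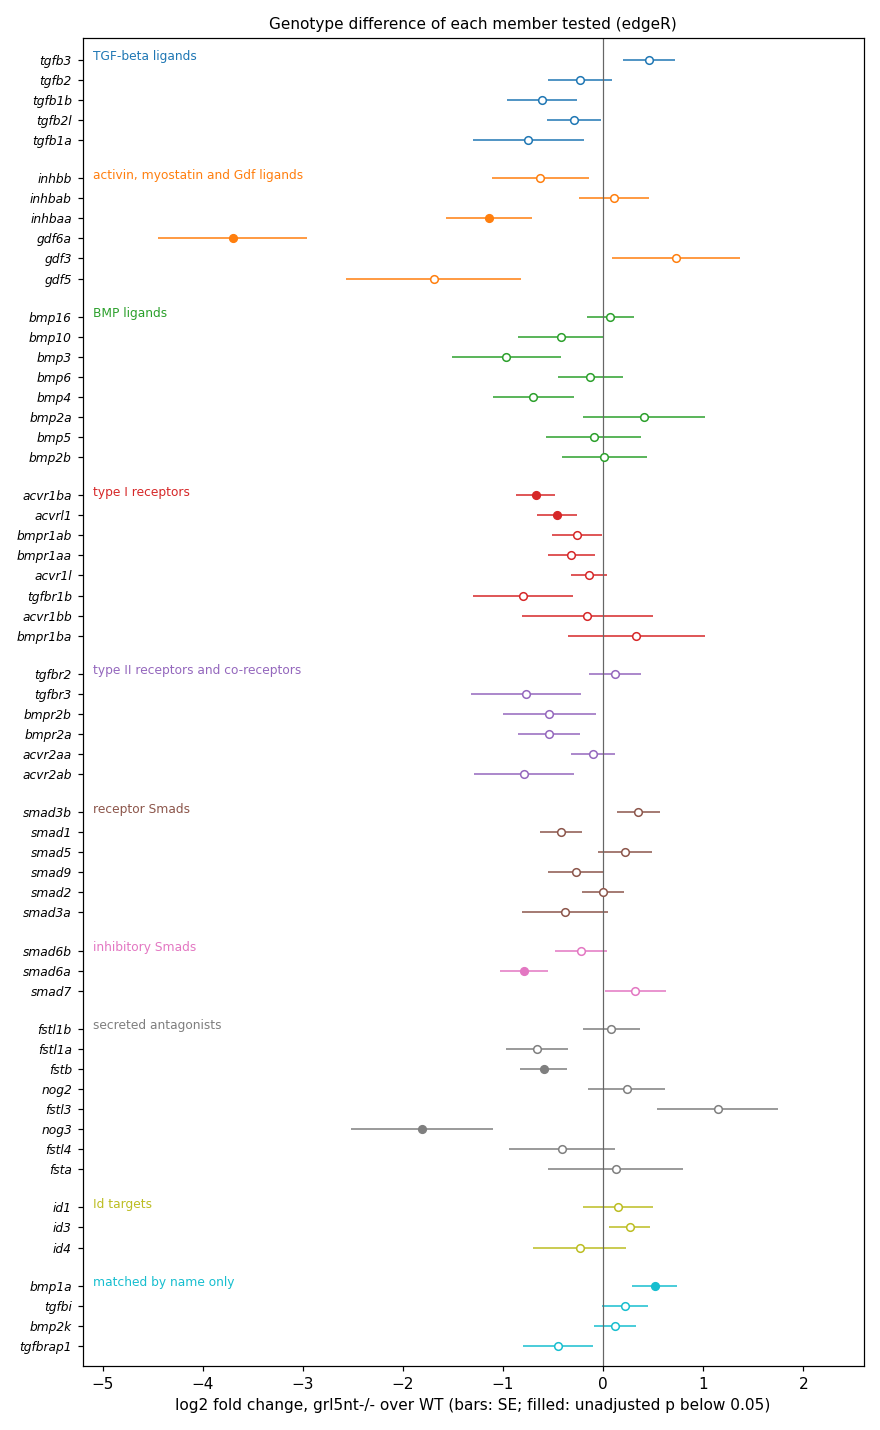
Log2 fold change, grl5nt-/- over WT, of each of the 57 members tested with edgeR; bars are the SE and filled points have an unadjusted p below 0.05. The filled points are 7 to the left of 0 and 1, *bmp1a*, to the right, and *gdf6a* lies farthest to the left at −3.70.

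The 5 TGF-beta ligands each had a mean above 1 FPKM, and *tgfb3* had the highest mean, with 38.6% to 71.6% of their summed FPKM in a library. In WT replicate 1 it was second to *tgfb2*. *tgfb3* had 60.5, 57.2 and 63.3 FPKM in grl5nt-/- replicates 1, 2 and 3 and 53.2, 52.2 and 55.0 FPKM in WT replicates 1, 2 and 3. The mutants were all above WT on that scale, whereas in CPM (138, 185 and 196 in grl5nt-/-, 105, 109 and 164 in WT) the groups overlapped, with a log2 fold change of 0.46 (SE 0.26, 95% interval −0.14 to 1.06). *tgfb2* followed with 48.9, 15.8 and 22.0 FPKM in grl5nt-/- and 56.3, 43.8 and 23.2 FPKM in WT ventricles. Here the low libraries were the 3 with *mt-co1* reads, of either genotype, and the log2 fold change was −0.23 (SE 0.32), −0.58 without grl5nt-/- replicate 1 and −0.0016 without grl5nt-/- replicate 2. *tgfb1b*, *tgfb2l* and *tgfb1a* had log2 fold changes of −0.61, −0.29 and −0.75 with overlapping libraries, so 4 of the 5 ligands had a lower mean in grl5nt-/- and none an unadjusted p below 0.05.

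Of the 15 activin, myostatin and Gdf ligands, 2 had a mean of at least 1 FPKM and 6 were tested. *inhbb*, which encodes the beta B chain of activin, had 3.14, 0.946 and 0.899 FPKM in grl5nt-/- and 5.10, 3.11 and 1.21 FPKM in WT replicates 1, 2 and 3. Its libraries overlapped, and the log2 fold change of −0.63 (SE 0.48) became −1.18 without grl5nt-/- replicate 1 and −0.21 without WT replicate 1. *inhbaa* and *inhbab* both encode a beta A chain of activin, and *inhbaa* promotes cardiomyocyte proliferation in the injured zebrafish heart. *inhbaa* had 29, 14 and 14 counts in grl5nt-/- and 92, 54 and 27 counts in WT ventricles, or 1.98, 1.21 and 1.37 CPM against 4.76, 3.22 and 2.12 CPM. All mutant libraries lay below all WT ones, the nearest being grl5nt-/- replicate 1 and WT replicate 3. Its log2 fold change was −1.14 (SE 0.43, 95% interval −2.11 to −0.17, unadjusted p = 0.0266 and adjusted p = 0.42 in the edgeR quasi-likelihood test), and −0.80 without WT replicate 1. The unadjusted p passed 0.05 in 8 of the 13 alternatives that could be fitted and in 2 of the 6 that left out a library, those without grl5nt-/- replicate 1 or WT replicate 3. Its copy *inhbab* had 6.70, 5.62 and 8.69 CPM in grl5nt-/- and 4.14, 9.01 and 6.35 CPM in WT ventricles. These overlapped, with a log2 fold change of 0.11 in CPM (95% interval −0.68 to 0.90) that became −0.11 on log2(FPKM + 1).

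*gdf6a*, on chromosome 16 from 39175557 to 39181634 in GRCz10, encodes a BMP-type ligand known from zebrafish eye development. It had 1, 0 and 2 counts in grl5nt-/- replicates 1, 2 and 3 and 21, 23 and 14 counts in WT replicates 1, 2 and 3. The mutant libraries were at or below the 3-count limit and the WT libraries all above it, and summed over libraries the 3 counts in grl5nt-/- and 58 counts in WT ventricles gave a ratio of 0.0693 (exact 95% interval 0.0139 to 0.213, counting error only). The edgeR quasi-likelihood test gave a log2 fold change of −3.70 (SE 0.74, unadjusted p = 0.000939, adjusted p = 0.17), which depends on the prior count at such levels. *gdf6a* passed the filter on low counts in 0 grl5nt-/- and 3 WT libraries, so it was tested through the genotype where it is high. Over its alternatives the adjusted p ranged from 0.0461 in DESeq2 to 0.67 without WT replicate 2. In log2 CPM the difference was −2.51 among the libraries with *mt-co1* reads, where WT has 1 library. It was −2.70 among those without them, where grl5nt-/- has 1 library. Since the libraries of *gdf6a* do not overlap by genotype, its direction was fixed in both sets. Its level in WT was 0.352 to 0.627 FPKM, below 1 FPKM in each library, and its copy *gdf6b* had no counts. *gdf5* had 13, 0 and 2 counts in grl5nt-/- and 36, 15 and 13 counts in WT replicates 1, 2 and 3. Summed, the 15 and 64 counts gave a ratio of 0.314 (exact 95% interval 0.166 to 0.557, counting error only). Its edgeR log2 fold change of −1.69 (SE 0.87, 95% interval −3.69 to 0.30) did not pass the unadjusted threshold.

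The BMP ligands did not separate by genotype. Of the 12, 8 were tested, 3 with a higher and 5 with a lower mean in grl5nt-/-, none with an unadjusted p below 0.05 or without overlap. *bmp16*, a relative of bmp2 and *bmp4*, had the highest level, with 30.9, 24.4 and 23.3 FPKM in grl5nt-/- and 28.4, 30.6 and 30.5 FPKM in WT ventricles. Its log2 fold change was 0.07 in CPM (95% interval −0.47 to 0.61) and −0.19 on log2(FPKM + 1). *bmp10*, which encodes a ligand made by heart muscle, had 23.7, 5.69 and 9.15 FPKM in grl5nt-/- and 28.1, 25.9 and 8.59 FPKM in WT ventricles. It was high in the 3 libraries without *mt-co1* reads and low in the 3 with them, in both genotypes, and its log2 fold change was −0.42 (SE 0.43), −0.93 without grl5nt-/- replicate 1 and −0.12 without grl5nt-/- replicate 2. The row BMP10 (1 of many), which is no member because of its capital letters, stood at 66.3, 43.9 and 43.9 FPKM in grl5nt-/- and 73.9, 71.7 and 65.5 FPKM in WT ventricles. *bmp3*, *bmp6*, *bmp4*, *bmp2a*, *bmp5* and *bmp2b* had log2 fold changes from −0.97 to 0.41.

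Among the type I receptors, *acvr1ba* and *acvrl1* had the highest levels, and both were lower in the mutants at the unadjusted threshold. *acvr1ba*, which encodes the activin receptor Alk4, had 563, 444 and 408 counts in grl5nt-/- and 1361, 1055 and 676 counts in WT replicates 1, 2 and 3. In CPM this was 38.5, 38.4 and 39.8 in grl5nt-/- against 70.5, 63.0 and 53.0 in WT ventricles. The mutant libraries lay close together and all WT libraries stood above them. The log2 fold change was −0.68 (SE 0.20, 95% interval −1.13 to −0.22, unadjusted p = 0.00844 and adjusted p = 0.35 in the edgeR quasi-likelihood test). Its unadjusted p stayed below 0.05 in all 14 alternatives, and its adjusted p ranged over them from 0.0752 to 0.96. The difference in log2 CPM was −0.79 among the libraries without *mt-co1* reads and −0.44 among those with them. The first set has 1 grl5nt-/- library and the second 1 WT library, and the lack of overlap fixes the direction in both.

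*acvrl1* encodes Alk1, a receptor of the endothelium and endocardium that binds Bmp10 and Bmp9. It had 48.5, 52.8 and 45.5 CPM in grl5nt-/- and 65.2, 76.3 and 60.4 CPM in WT ventricles. No libraries overlapped in CPM, and the log2 fold change was −0.46 (SE 0.20, unadjusted p = 0.0467, adjusted p = 0.47, edgeR quasi-likelihood test). The unadjusted p passed 0.05 in 6 of 14 alternatives and in 1 of the 6 that left out a library. Endothelial markers summed to 360 to 574 CPM in grl5nt-/- and 410 to 577 CPM in WT ventricles, with overlap, and none of the 5 had an unadjusted p below 0.05. *acvr1ba* (chromosome 23, 27873978 to 27896379) and *acvrl1* (27909106 to 27930563) are neighbors, with 12.7 kb between them and 0 other genes of the table in that gap.

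The other type I receptors tested had overlapping libraries. *acvr1l*, which encodes the BMP receptor Alk8 of zebrafish, had 35.0, 33.6 and 35.3 CPM in grl5nt-/- and 38.6, 41.1 and 34.9 CPM in WT ventricles, which overlapped (log2 fold change −0.14, 95% interval −0.56 to 0.28). The BMP receptors *bmpr1ab* and *bmpr1aa* had log2 fold changes of −0.26 and −0.32, and *tgfbr1b*, a TGF-beta receptor, −0.80 (SE 0.50). The copy of *acvr1ba*, *acvr1bb*, had 3.49, 0.519 and 1.95 CPM in grl5nt-/- and 2.85, 2.80 and 1.02 CPM in WT ventricles, with a log2 fold change of −0.16 (SE 0.66).

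The type II receptors and co-receptors were led by *tgfbr2*, the TGF-beta type II receptor, which made up 69.9% to 91.4% of their summed FPKM in each library. *tgfbr2* had 48.3, 52.3 and 49.4 FPKM in grl5nt-/- and 55.4, 57.9 and 56.2 FPKM in WT ventricles. WT lay above the mutants in each library on that scale, but in CPM (109, 166 and 151 in grl5nt-/-, 107, 119 and 165 in WT) the groups overlapped, and the log2 fold change was 0.12 (95% interval −0.48 to 0.72) in CPM and −0.17 on log2(FPKM + 1). *tgfbr3*, which encodes the co-receptor betaglycan, had 3.82, 0.706 and 1.40 FPKM in grl5nt-/- and 6.26, 4.88 and 1.24 FPKM in WT ventricles. It was lowest in the 3 libraries with *mt-co1* reads (log2 fold change −0.77, SE 0.55, from −1.39 without grl5nt-/- replicate 1 to −0.41 without grl5nt-/- replicate 2). Of the 6 tested, 5 had a lower mean in grl5nt-/- with a median of −0.54, and none had an unadjusted p below 0.05 or separated libraries in CPM.

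Receptor Smads of both branches had means of 2.84 to 13.9 FPKM over the 6 libraries. *smad3b*, a transducer of TGF-beta and activin signals, had 36.3, 34.7 and 30.6 CPM in grl5nt-/- and 29.6, 20.8 and 29.2 CPM in WT ventricles. The mutants were above WT in each library by this scale, with a log2 fold change of 0.35 (SE 0.22, 95% interval −0.15 to 0.85), and overlapped WT in FPKM. *smad1*, a transducer of BMP signals, had 30.3, 37.9 and 26.8 CPM in grl5nt-/- and 47.3, 39.6 and 40.4 CPM in WT ventricles. All mutant libraries were below WT, with a log2 fold change of −0.42 (SE 0.21, 95% interval −0.91 to 0.06). Neither passed the unadjusted threshold. *smad5*, *smad9*, *smad2* and *smad3a* had log2 fold changes of 0.22, −0.27, 0.00 and −0.38, with libraries that overlapped in CPM. In FPKM the libraries of *smad9* did not overlap and were lower in grl5nt-/-.

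Among the inhibitory Smads, the libraries of the genotypes separated in CPM for *smad6a* and overlapped for *smad6b* and *smad7*. *smad6a*, whose product blocks BMP signaling in the cell, had 391, 319 and 322 counts in grl5nt-/- and 703, 1049 and 632 counts in WT replicates 1, 2 and 3, or 26.7, 27.6 and 31.4 CPM against 36.4, 62.6 and 49.5 CPM. The mutants were all below WT, among which replicate 2 was highest. The log2 fold change was −0.79 (SE 0.24, 95% interval −1.35 to −0.24, unadjusted p = 0.0107 and adjusted p = 0.38 in the edgeR quasi-likelihood test). The unadjusted p passed 0.05 in 13 of 14 alternatives, the exception being the fit without WT replicate 2, where the log2 fold change was −0.58, and the adjusted p ranged from 0.0911 to 0.93. The difference in log2 CPM was −0.83 where *mt-co1* had no reads and −0.75 where it had some. The first set has 1 grl5nt-/- library and the second 1 WT library, and the lack of overlap fixes the direction in both.

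*smad6b*, the more abundant copy with a mean of 23.1 FPKM, had 40.7, 44.5 and 51.4 CPM in grl5nt-/- and 38.1, 51.7 and 70.0 CPM in WT ventricles. Its libraries overlapped in CPM, with a log2 fold change of −0.23 (95% interval −0.82 to 0.37). *smad7*, whose product blocks TGF-beta and BMP receptors, had a log2 fold change of 0.32 (SE 0.30). *smad6a* lies 33.7 kb from *smad3a* on chromosome 7, and *smad6b* lies 73.8 kb from *smad3b* on chromosome 18, each pair with 0 other genes of the table between them.

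**Figure D3:**
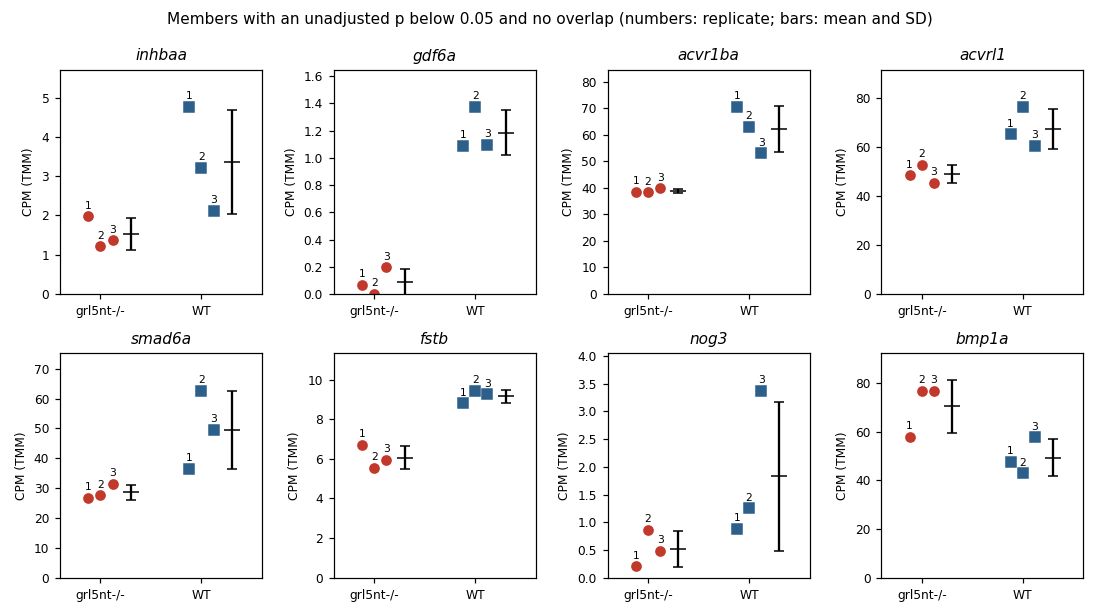
CPM after TMM scaling in each library for the 8 members with an unadjusted p below 0.05 and no overlap between genotypes; red circles are grl5nt-/- and blue squares WT libraries, the numbers are the replicates, and bars are the mean and SD (n = 3). In 7 panels every red circle is below every blue square, and in the *bmp1a* panel the reverse holds by a narrow gap between grl5nt-/- replicate 1 (57.9 CPM) and WT replicate 3 (57.8 CPM).

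A ratio of copies within 1 library does not depend on how the library is scaled. These ratios were chosen after the values had been seen and are given without a test. The ratio of *smad6a* to *smad6b* counts was 0.656, 0.619 and 0.612 in grl5nt-/- and 0.955, 1.21 and 0.708 in WT replicates 1, 2 and 3. Every mutant ratio was below every WT ratio. The ratio of *inhbaa* to *inhbab* counts was 0.296, 0.215 and 0.157 in grl5nt-/- and 1.15, 0.358 and 0.333 in WT replicates 1, 2 and 3. Here too the groups did not overlap, although WT replicate 1 stood far above the other 2. The ratio of *fstl1a* to *fstl1b* counts was 0.0375, 0.0408 and 0.0796 in grl5nt-/- and 0.0554, 0.1005 and 0.110 in WT ventricles, and overlapped. How the reads of close copies were shared in counting is not given in the sources used here.

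**Figure D4:**
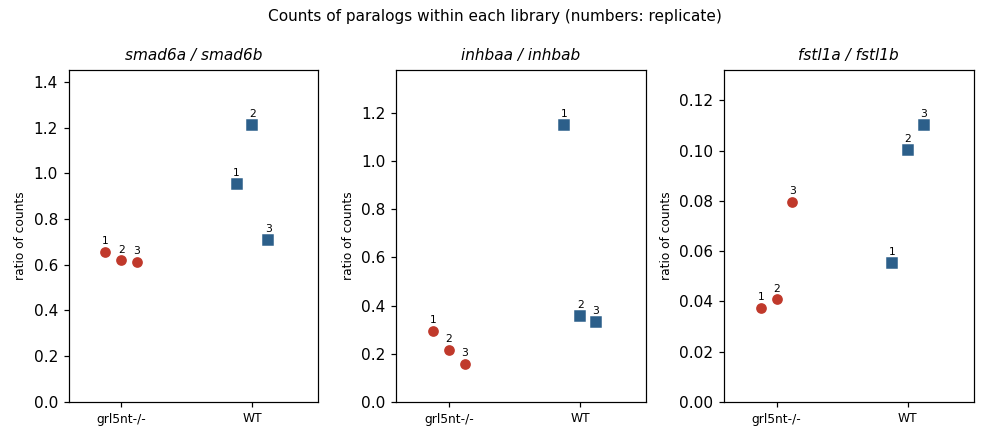
Ratio of the counts of 2 copies of a gene in each library, for *smad6a* over *smad6b*, *inhbaa* over *inhbab* and *fstl1a* over *fstl1b*; red circles are grl5nt-/- and blue squares WT libraries, numbered by replicate. The circles lie below the squares for *smad6a* over *smad6b* (0.612 to 0.656 in grl5nt-/-, 0.708 to 1.21 in WT) and for *inhbaa* over *inhbab*, and overlap them for *fstl1a* over *fstl1b*.

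The secreted antagonists were led by *fstl1b*, which encodes a follistatin-like glycoprotein and took 63.3% to 83.5% of their summed FPKM. *fstl1b* had 576, 416 and 423 CPM in grl5nt-/- and 525, 492 and 321 CPM in WT ventricles. These overlapped, with a log2 fold change of 0.08 in CPM (95% interval −0.57 to 0.73) and −0.20 on log2(FPKM + 1). *fstl1a* had 21.6, 16.9 and 33.7 CPM in grl5nt-/- and 29.1, 49.4 and 35.4 CPM in WT ventricles, where grl5nt-/- replicate 3 overlapped WT (log2 fold change −0.66, SE 0.31, 95% interval −1.37 to 0.05).

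*fstb* and *nog3* were the antagonists whose libraries separated in CPM. *fstb*, 1 of 2 follistatin genes and so an antagonist of activin, had 98, 64 and 61 counts in grl5nt-/- and 170, 158 and 118 counts in WT ventricles, or 6.70, 5.53 and 5.96 CPM against 8.80, 9.43 and 9.25 CPM. All mutant libraries were below WT by more than the spread within either group, with a log2 fold change of −0.59 (SE 0.23, unadjusted p = 0.0339, adjusted p = 0.44, edgeR quasi-likelihood test). That p passed 0.05 in 7 of 14 alternatives. The copy *fsta* had 18, 8 and 18 counts in grl5nt-/- and 7, 15 and 28 counts in WT ventricles, with overlap.

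*nog3* encodes a noggin, which binds and blocks BMP ligands. Its counts were 3, 10 and 5 in grl5nt-/- and 17, 21 and 43 in WT replicates 1, 2 and 3. The mutant libraries were all lower, and WT replicate 3 was highest. None of the mutant libraries passed the filter on low counts, so *nog3* could enter the test through WT alone. Summed counts gave a ratio of 0.298 (exact 95% interval 0.168 to 0.501, counting error only). The edgeR quasi-likelihood test gave a log2 fold change of −1.81 (SE 0.71, unadjusted p = 0.0328, adjusted p = 0.44). It was −1.04 without WT replicate 3, and with a term for *mt-co1* reads it was −2.30 with an adjusted p of 0.0473, the lowest among its alternatives, which reached 0.93. The other noggin tested, *nog2*, had a log2 fold change of 0.23 (SE 0.38).

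The Id genes, which are direct BMP targets in many cells, did not separate by genotype. *id1* had the highest mean FPKM of all members, ahead of *fstl1b*, with 62.2, 80.2 and 97.2 FPKM in grl5nt-/- and 88.6, 75.3 and 101 FPKM in WT ventricles. A second *id1* row overlaps it in the annotation and had at most 11 counts per library. The libraries interleaved, with a log2 fold change of 0.15 in CPM (95% interval −0.66 to 0.95), −0.16 on log2(FPKM + 1) and −0.17 with a term for *mt-co1* reads. *id3* had 34.6, 29.5 and 32.8 FPKM in grl5nt-/- and 37.9, 32.3 and 29.2 FPKM in WT ventricles, which also overlapped, with a log2 fold change of 0.27 in CPM (95% interval −0.20 to 0.74) and −0.03 on log2(FPKM + 1). *id4* had a log2 fold change of −0.24 (SE 0.46).

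*bmp1a*, the 1 member higher in the mutants at the unadjusted threshold, encodes no growth factor but a protease that processes procollagen and cleaves the BMP antagonist chordin. It had 847, 888 and 787 counts in grl5nt-/- and 920, 719 and 737 counts in WT ventricles, or 57.9, 76.8 and 76.8 CPM against 47.6, 42.9 and 57.8 CPM. The raw counts overlap, and the CPM separate by the gap of grl5nt-/- replicate 1 to WT replicate 3 alone. The log2 fold change was 0.51 (SE 0.22, unadjusted p = 0.0472, adjusted p = 0.47, edgeR quasi-likelihood test), and 0.20 on log2(FPKM + 1). Its unadjusted p passed 0.05 in 7 of 14 alternatives. *tgfbi*, an extracellular matrix protein named for its response to TGF-beta, had a log2 fold change of 0.22 (SE 0.23), and *bmp1b* had 1 to 6 counts per library.

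The spread between libraries was compared with the genotype difference for each member, with the 6 libraries set into 3 with and 3 without *mt-co1* reads, a grouping made from the data and not by the study. The difference along *mt-co1* reads was larger than that along genotype in 41 of the 57 members (71.9%), against 69.7% of all genes. It ranged from −1.51 in log2 CPM for *tgfbr3* to 1.38 for *nog3*, and 11 members (19.3%, against 14.5% of all genes) were lower by over 1 in the libraries with *mt-co1* reads, among them *tgfb1a*, *bmp10*, *inhbb*, *bmpr2b* and *smad3a*. *acvr1ba*, *acvrl1*, *fstb*, *gdf6a* and *smad6a* differed along *mt-co1* reads by −0.15, −0.10, −0.10, −0.04 and 0.10, less than their genotype differences in the same libraries of −0.61, −0.42, −0.56, −2.61 and −0.79. For *inhbaa* the difference along *mt-co1* reads was −0.71 and that along genotype −0.80, for *bmp1a* both were 0.38, and for *nog3* they were 1.38 and −1.96. These members were chosen by their genotype difference in the same libraries, which favors a larger difference along genotype. Each kind of library also has only 1 library of 1 of the genotypes. *gdf6a* and *nog3* passed the filter on low counts in no grl5nt-/- library, so they could enter the test through WT alone. With 1, 0 and 2 counts in grl5nt-/- replicates 1, 2 and 3, *gdf6a* could differ little along *mt-co1* reads in that genotype.

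**Figure D5:**
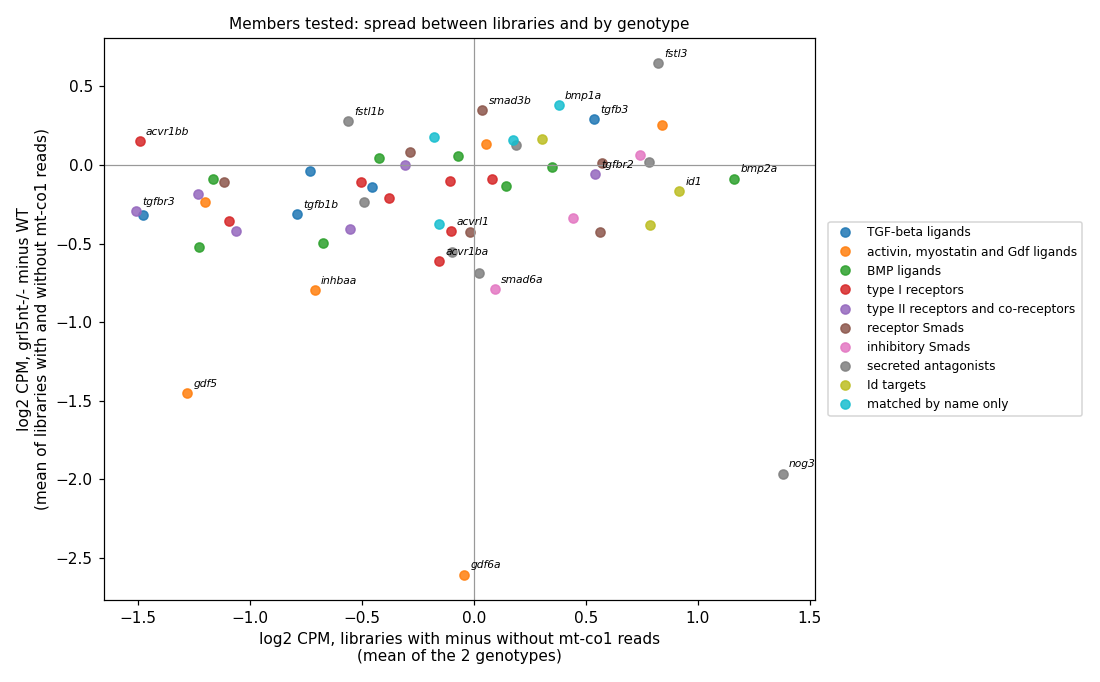
Each point is 1 of the 57 members tested, colored by role; the horizontal axis is the difference in log2 CPM between libraries with and without *mt-co1* reads, averaged over genotypes, and the vertical axis the difference of grl5nt-/- minus WT, averaged over both kinds of library. Most points spread farther along the horizontal axis (−1.51 to 1.38) than the vertical one, while *gdf6a* at −2.61 and *smad6a* at −0.79 lie near 0 on the horizontal axis and *nog3* is far from 0 on both. *gdf6a* had 1, 0 and 2 counts in grl5nt-/- replicates 1, 2 and 3, which limits its horizontal spread.

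Pathway genes outside the symbol match and genes known to respond to TGF-beta or BMP were taken from 2 further lists. Of 48 pathway symbols, 33 rows were tested, 18 with a higher and 15 with a lower mean in grl5nt-/- (median log2 fold change 0.08, against −0.05 over all genes). With no overlap, 1 of the 33 was higher (against 6.95% of all genes) and 1 lower (against 8.64%). At an unadjusted p below 0.05, 0 were higher (against 4.22% of all genes) and 1 was lower (against 6.35%). This was *rgma*, a BMP co-receptor, with 2.46, 1.04 and 2.44 CPM in grl5nt-/- and 8.28, 6.74 and 3.29 CPM in WT ventricles (log2 fold change −1.62, SE 0.47, adjusted p = 0.34, edgeR quasi-likelihood test). *htra1a*, a secreted protease, had 49.5, 53.3 and 87.2 CPM in grl5nt-/- and 32.8, 43.9 and 47.7 CPM in WT ventricles, which did not overlap (log2 fold change 0.61, SE 0.28).

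Of the 32 response genes, 26 were tested, 11 with a higher and 15 with a lower mean in grl5nt-/- (median −0.12). The unadjusted p was below 0.05 in 5, all lower, among them *vcana*, *tbx2b*, *tbx20* and *junba*, and the adjusted p in none. Of all genes, 6.35% were lower at that threshold. The libraries of *junba* overlapped. Among abundant response genes with overlapping libraries, *tagln*, *acta2* and *fn1a* had log2 fold changes of 0.56, 0.35 and 0.28. Those of *col5a1*, *postnb* and *fn1b* were −0.40, −0.29 and −0.15. *vcana*, which encodes a versican, a matrix proteoglycan, had 1.09, 0.692 and 0.781 CPM in grl5nt-/- and 2.54, 2.69 and 1.80 CPM in WT ventricles. All its mutant libraries were below WT (log2 fold change −1.44, SE 0.41). Its counts were 16, 8 and 8 in grl5nt-/- and 49, 45 and 23 in WT, so it could enter the test through WT alone. The other versican gene of the list, *vcanb*, had a higher level, 28.6 to 56.7 CPM in grl5nt-/- and 28.4 to 41.6 CPM in WT. The libraries of *vcanb* overlapped, with a log2 fold change of 0.39 (SE 0.29). *tbx2b*, a T-box gene and BMP target, had 3.08, 1.64 and 3.12 CPM in grl5nt-/- and 9.32, 6.33 and 3.60 CPM in WT ventricles. These did not overlap (log2 fold change −1.30, SE 0.43). Markers of epicardium and fibroblasts, cells that make much of the matrix, summed to 677 to 1061 CPM in grl5nt-/- and 991 to 1064 CPM in WT ventricles. Of these 6 markers, 5 had a lower mean in grl5nt-/-, as 53.1% of all genes did. Only 1, *tbx18*, was lower at an unadjusted p below 0.05, where 6.35% of all genes were lower. It was also the only 1 lower with no overlap, against 8.64% of all genes. *postnb* is in the response list too. The part of these cells in the values was not tested.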

How the data were processed

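RNA from injured ventricles (6 pooled per library, 3 grl5nt-/- and 3 WT libraries) was sequenced. The authors used Seqtk to filter the reads, HISAT2 2.0.4 for alignment to GRCz10 and StringTie 1.3.0 for the FPKM. The deposited table holds a whole-number count and an FPKM for each of 32105 genes; the program that counted reads and its strand setting are not given in the sources used here. Columns were matched to samples by the letter in the labels.

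Counts were scaled with TMM and tested two-sided with the quasi-likelihood test of edgeR 4.0.16 in R 4.3.3 over the 15602 genes that filterByExpr retained, and p-values were adjusted by Benjamini-Hochberg. Log2 CPM used a prior count of 2. SE values come from the fold change and F statistic, and 95% intervals from its degrees of freedom. The functions were tested on simulated data. Replicates are separate pools in the labels. Values per library are given for members with an unadjusted p below 0.05 and no overlap, the 2 members of highest mean FPKM in each role, the a or b copies of the first kind, and at most 2 genes per further list. Other members with values per library, such as *gdf5*, *acvr1l* and *mstnb*, were chosen after their values were seen. As alternatives, the test was run with DESeq2 1.42.0, with size factors of DESeq2 inside edgeR, without the filter, on genes averaging 1 FPKM or more, with limma 3.58.1 on log2(FPKM + 1) and log2(FPKM + 0.1), with a replicate block, with a term for *mt-co1* reads, and with each library left out. Members and lists were chosen with earlier results of these data known. Sequences of promoters and proteins were not used here. 1 gene of the response list is not reported here by name.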

Additional observations from a re-analysis of the deposited data

How the results depend on the processing

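In 14 alternatives, no member reached an adjusted p below 0.05 on the higher side. On the lower side 1 (*gdf6a*) did so in DESeq2 and 2 (*gdf6a* and *nog3*) with a term for *mt-co1* reads. Both *gdf6a* and *nog3* passed the edgeR filter on low counts in no grl5nt-/- library. Members with an unadjusted p below 0.05 on the higher side numbered 2 in DESeq2 (2.5%, against 3.68% of all genes). Without a filter they numbered 2 (2.5%, against 3.37%), and in the limma fits on FPKM 0 (against 2.03% and 1.62%). A term for *mt-co1* reads gave 3 (5.26%, against 8.4%). Leaving out 1 library gave 0 (against 1.88% to 2.12%) to 3 (4.92%, against 9.35%). On the lower side limma on log2(FPKM + 0.1) gave 11 (19.3%, against 8.23% of all genes). The share came closer to that of all genes in DESeq2, with 5 (6.25%, against 4.47%). Without a filter there were 7 (8.75%, against 6.21%), and without WT replicate 3 there were 9 (15%, against 11.7%). Leaving out 1 library gave 3 (4.92%, against 3.07%) to 17 (27.9%, against 16.6%). Members higher with no overlap numbered 6 in DESeq2 and without a filter, which include more members (7.5%, against 5.66% of all genes in each). Both limma fits gave 1 (1.75%, against 4.27%), and leaving out 1 library gave 2 to 8 (at 8, 13.1%, against 21.8%). Those lower with no overlap numbered 5 among members with a mean of at least 1 FPKM, which are fewer (11.6%, against 7.62% of all genes). They numbered 9 to 23 when 1 library was left out (at 23, 38.3%, against 24.8%), where fewer libraries make a separation easier.

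The labels give both genotypes replicates 1 to 3. Deviations of same-numbered libraries from their group means correlated at 0.59, −0.34 and 0.39. Over all pairs of a grl5nt-/- and a WT library, the correlation was positive where both or neither had *mt-co1* reads. It was negative in every other pair, so this check cannot decide whether the numbers pair the libraries. With the replicate number as a block, 11 members had an unadjusted p below 0.05 on the lower side (19.3%, against 11% of all genes). Without it there were 7 (12.3%, against 6.35% of all genes), so the share rose for all genes as well.

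On the log2(FPKM + 1) and log2(FPKM + 0.1) scales the median over all genes was −0.21 and −0.33, and some log2 fold changes changed sign there: *inhbab* to −0.11 and −0.14, *bmp16* to −0.19 and −0.20, *tgfbr2* to −0.17 and −0.18, *fstl1b* to −0.20 and −0.20, *id1* to −0.16 and −0.16, *id3* to −0.030 and −0.031, and *fsta* to −0.0024 on the first scale. A term for *mt-co1* reads gave *bmp16* −0.016, *tgfbr2* −0.061, *id1* −0.17 and *acvr1bb* 0.28. With 1 library left out, the ranges were −0.13 to 0.43 for *inhbab*, −0.062 to 0.31 for *bmp16*, −0.0028 to 0.34 for *tgfbr2*, −0.41 to 0.034 for *smad6b*, −0.096 to 0.22 for *fstl1b*, −0.069 to 0.51 for *id1*, −0.85 to 0.30 for *acvr1bb* and −0.32 to 0.97 for *fsta*. None of these members passed a threshold, and the cause of the sign changes was not tested. The 8 members with an unadjusted p below 0.05 kept their direction in every alternative that could be fitted. Their libraries do not overlap in CPM, which largely fixes the direction, also when 1 library is left out.

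Depth limits the low members most: *gdf6a*, *nog3*, *gdf5* and *inhbaa* rest on fewer than 100 counts in each library.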

Other observations

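The shared partner of the receptor Smads, Smad4, is given by rows with capital letters that the symbol match does not take. The more abundant SMAD4 (1 of many) row had 23.9, 35.1 and 31.5 CPM in grl5nt-/- and 26.5, 31.3 and 46.0 CPM in WT replicates 1, 2 and 3, which overlapped (log2 fold change −0.20, SE 0.27). A second receptor row, TGFBR2 (1 of many), had 22.8, 10.2 and 11.3 CPM in grl5nt-/- and 36.1, 27.7 and 12.6 CPM in WT ventricles. It was high in the libraries without *mt-co1* reads, as *tgfbr3* was, with a log2 fold change of −0.79 (SE 0.44) and overlapping libraries.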
